A study of Rattus norvegicus with 30 samples.

Results

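The granins are acidic proteins of the regulated secretory pathway. They are sorted with prohormones and neuropeptide precursors into dense-core granules at the trans-Golgi network, help the granule core to form, and are in part cut into peptides of their own. In brain they are made by neurons, the amygdala included, and the transcripts of Scg2 and Vgf are known to respond to neuronal activity and to growth factors. The 6 genes described here are Scg2, which encodes the precursor of the peptide secretoneurin, Vgf, a nerve growth factor-inducible granin and peptide precursor, Chga and Chgb, which encode chromogranins A and B, Scg3, whose product links chromogranin A to the cholesterol-rich granule membrane, and Scg5, which encodes the chaperone and inhibitor of the convertase made from Pcsk2. They were picked by name as a family, with earlier results of these data known, and are 6 of the 13337 genes named on the array.

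Amygdala RNA came from adult Sprague Dawley rats, 1 array per rat and 5 rats in each of 6 groups. Within each sex the groups were rats exposed to predator scent that showed an extreme behavioural response, rats exposed in the same way that showed a minimal response, and controls that were tested behaviourally but not exposed. Extreme and minimal are therefore classes of response among exposed rats, not separate treatments. The question addressed is which transcripts differ with exposure and with the response to it, in males and in females. The RNA is from whole dissected tissue, so fewer cells of a type and less RNA per cell cannot be told apart.

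Values are log2 intensities of 22523 Illumina probes as deposited by the authors, and every array has the same median, 7.02. A difference of 1 on this scale is 2-fold, and limma's adjusted p counts as passed under 0.05, with the adjustment made over all 13308 probes tested in a comparison. Precision is limited by the 5 arrays per group. All 11 listed neuronal markers were measured, and Syt1, Snap25 and Eno2 averaged 12.6 or more in every group. Of 7 listed basolateral amygdala markers 5 were named on the array, and Rspo2 stayed between 6.78 and 7.46 on all 30 arrays, around the array median. Group means of the other markers were 7.82 to 9.56 for Cyp26b1, 8.17 to 8.61 for Etv1, 7.1 to 7.4 for Lypd1 and 7.0 to 7.4 for Nr2f2. The sex labels were not checked, because 0 of 7 Y-linked symbols and 0 probes for Xist were found among the named probes.

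Arrays differed in regional markers. A marker score is the mean, over a list's genes, of the log2 deviation from each gene's mean over the 30 arrays. The thalamic score, over 12 genes such as Slc17a6 and Prkcd, was above 0.5 on 8 arrays, all female: extreme 1, 2 and 3, minimal 1, 2 and 3, and control 4 and 5. Arrays also split into a lower state of 14 and a higher state of 16 arrays by the Rpl37l1 probe. The lower state held every female control and every extreme male, and the higher state every male control, so in extreme against control males the state and the group cannot be told apart. State also moved with exposure, in opposite directions in the sexes. Over 3 array state genes (Rpl37l1, Rpl7 and Rpl23) the median exposed minus control difference was 1.40 in females and -1.49 in males. A sex difference in exposure therefore runs along the state as well.

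The promoters of Scg2 and Vgf are shown because these were the only members whose levels passed the test with exposure or response. Each sequence runs 5′ to 3′ on the gene's strand, from 250 bases before to 50 bases after the transcript start used in the RefSeq promoter table (GRCr8 assembly). The Scg2 window is chr9:88256817-88257116 and the Vgf window chr12:25276971-25277270, both on the minus strand. Both windows lie inside the annotated extent of their gene, which reaches farther upstream than the start used here. Capitals mark the palindromic cAMP response element TGACGTCA, the known binding motif of the factor CREB.
Scg2: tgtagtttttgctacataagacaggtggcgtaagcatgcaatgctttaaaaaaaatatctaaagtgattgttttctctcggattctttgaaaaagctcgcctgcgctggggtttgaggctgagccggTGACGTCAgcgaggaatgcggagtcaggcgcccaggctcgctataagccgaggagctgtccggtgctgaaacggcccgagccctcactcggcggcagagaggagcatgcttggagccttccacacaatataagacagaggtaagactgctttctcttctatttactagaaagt
Vgf: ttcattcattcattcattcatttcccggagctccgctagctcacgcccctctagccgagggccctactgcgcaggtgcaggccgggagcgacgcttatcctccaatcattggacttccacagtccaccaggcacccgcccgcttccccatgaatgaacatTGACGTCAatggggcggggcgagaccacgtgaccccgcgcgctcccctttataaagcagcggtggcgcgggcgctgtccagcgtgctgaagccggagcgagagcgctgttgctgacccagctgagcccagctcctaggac

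The full element begins at position -123 from that start in Scg2 and at -90 in Vgf. It was found in 612 of 33469 rat promoters of the same length, or 1.829%. Searched on both strands, the part element TGACG, which the full element contains, was in 21.2% of promoters. Vgf also holds 2 overlapping TATAAA matches and 2 GGGCGG matches, motifs present in 14.22% and 33.06% of promoters. The windows of Chgb, Scg3 and Scg5 held 0 full elements, and Scg3 had 1 and Scg5 had 2 matches to the part element alone. Chga had no promoter entry and was not searched, so the element is not shown to set Scg2 and Vgf apart from all other members. These are matches of letters and not measured binding sites.

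By position in GRCr8, Scg2 lies at chr9:88251531-88257208, Vgf at chr12:25274004-25281803, Chga at chr6:127460895-127472238, Chgb at chr3:140496712-140510057, Scg3 at chr8:85280253-85322484 and Scg5 at chr3:120998420-121042881. Each was read by 1 probe, and all 6 probes were above the array median on all 30 arrays. The probes of Chgb, Scg3 and Scg5 averaged 12.60, 12.51 and 11.28, and those of Scg2, Chga and Vgf 8.85, 8.21 and 7.71. Probes differ in brightness for one and the same amount of RNA, so these levels rank no gene above another.

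Scg2 was the granin that differed with exposure, and in the female arrays. In the extreme females it read 9.21, 9.79, 10.02, 9.05 and 9.82. In the minimal females it read 9.07, 10.18, 9.58, 8.01 and 9.95, and in the female controls 8.30, 7.87, 8.37, 8.73 and 8.67. Of the 10 exposed females 9 were above the highest control, and minimal female 4, at 8.01, was the exception. Exposed females averaged 9.47 ± 0.65 (SD, n = 10) and female controls 8.39 ± 0.34 (SD, n = 5), a log2 difference of 1.08 ± 0.23 (SE), or 2.12-fold (limma adjusted p = 0.0049). This SE and adjusted p use 1 spread fitted to all 6 groups, while the pooled SD of Scg2 was 0.59 in females and 0.23 in males. The call ended when only the female arrays were in the fit, as given below. An exact two-sided permutation test on Scg2 alone gave p = 0.0067.

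The other 5 granins did not pass in this comparison. The count of 1 higher and 0 lower among 6 members stands beside 914 of 13308 probes, or 6.87%, that passed. Scg5 was lower by a log2 of -0.24 ± 0.09 (adjusted p = 0.116), with 8 of 10 exposed females below the control mean. Vgf differed by 0.24 ± 0.17, Chga by 0.11 ± 0.10, and Chgb and Scg3 by 0.03 each. The median over the 6 members was 0.07, against 0.00 over all probes tested.

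**Figure D1:**
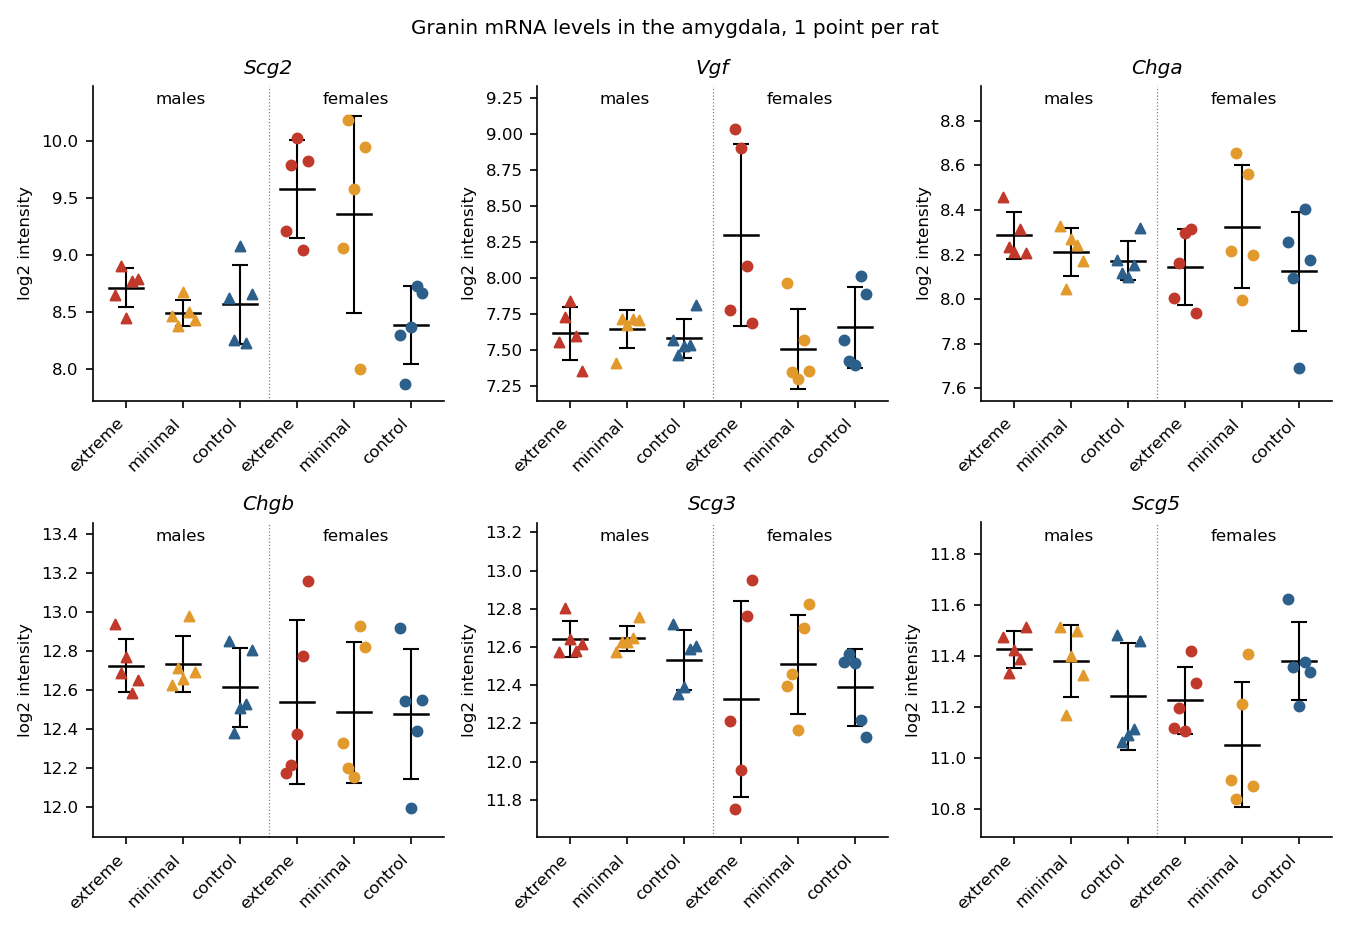
Log2 intensity (vertical axes) of each granin on every array, by group (horizontal axes), with males as triangles and females as circles, black bars for the mean and whiskers for the SD of 5 arrays. Scg2 lies between 9.05 and 10.02 in extreme females and between 7.87 and 8.73 in female controls, and Vgf reaches 9.03 and 8.90 on 2 extreme female arrays.

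The 2 response classes of females were each set against the same 5 control females, so their differences share those arrays. Extreme females exceeded controls by 1.19 ± 0.27 (adjusted p = 0.0070), and the groups did not overlap, as was so for 6.37% of probes. The exact permutation test gave p = 0.0079, the smallest that 5 against 5 arrays allow. The limma call ended with only the female arrays (1.19, adjusted p = 0.0758), with the choroid plexus score as a covariate (0.86, 0.0596) and without the 8 arrays of high thalamic score (1.25, 0.0753). Minimal females exceeded controls by 0.97 ± 0.27 and missed the threshold narrowly (adjusted p = 0.0531). With the replicate number as a block over all arrays, Scg2 passed in minimal females (limma adjusted p = 0.0464). The labels do not state this pairing, and same-numbered minimal and control females did not deviate together on average (mean correlation -0.172). Scg2 also passed without minimal female 4 (difference 1.31, adjusted p = 0.0011). In minimal against control females 0 of 6 members passed by limma, where 1.98% of probes passed. An unadjusted limma p under 0.05 was found for 2 of 6 members (Scg2 and Scg5) and for 15.82% of probes. An exact permutation p under 0.05 was found for 0 members.

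Extreme minus minimal females gave 0.22 ± 0.27 for Scg2 (adjusted p = 0.84), and the range of the extreme females lay wholly within that of the minimal females. Minimal females spread most widely, with an SD of 0.86 (n = 5), because they hold both the highest and nearly the lowest female value.

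The Scg2 difference was set beside the markers and states that move with the groups. Thalamic scores were -0.23 to 2.01 among extreme females, -0.37 to 0.96 among minimal females and -0.52 to 1.28 among female controls. Of 12 thalamic markers 10 had a positive exposed minus control difference in females and 0 passed the test, and of 14 oligodendrocyte markers 13 had a positive difference and 0 passed. Of 8 pallial excitatory neuron markers 2 were lower, Lamp5 by -1.58 ± 0.40 (adjusted p = 0.0163) and Camk2a by -0.80 ± 0.23 (0.0304), and the median over the list was -0.54. Lower too were 2 of 10 astrocyte, 1 of 9 microglia and 1 of 7 choroid plexus markers, and 3 of 3 genes of the array state were higher. Over all probes 6.87% passed in this comparison. The part of these markers in the Scg2 difference was not tested one by one, apart from the covariates given next.

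Array by array, Scg2 was 9.79, 10.02 and 9.21 on extreme arrays 2, 3 and 1, with thalamic scores of 2.01, 1.62 and 0.62, and 9.05 and 9.82 on extreme arrays 4 and 5, with scores of -0.23 and -0.10. It was 9.07, 10.18 and 9.58 on minimal arrays 1, 2 and 3, with scores of 0.81 to 0.96, and 8.01 and 9.95 on minimal arrays 4 and 5, with scores of -0.37 and -0.32. It was 8.73 and 8.67 on control arrays 4 and 5, with scores of 1.27 and 1.28, and 7.87 to 8.37 on control arrays 1, 2 and 3, with scores of -0.52 to -0.44. High-score and low-score arrays overlapped in Scg2 within both exposed groups, while among controls the 2 high-score arrays were above the 3 others.

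With the thalamic score as a covariate the exposed minus control difference of Scg2 was 0.96 (adjusted p = 0.0055), with the oligodendrocyte score 0.92 (0.0091), and with 4 regional scores together 0.81 (0.0241). Without the 8 arrays of high thalamic score it was 1.03 from 4 exposed and 3 control females, and the call ended (adjusted p = 0.0512). With the array state as a covariate it was 1.39 (0.0060), and among lower-state arrays alone, 3 exposed and 5 control females, 1.45 (0.0098). When the fit held the 15 female arrays only, the difference was the same and the call ended (adjusted p = 0.0646). Leaving out each of the 30 arrays in turn gave 0.95 to 1.25, and the call held every time.

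**Figure D2:**
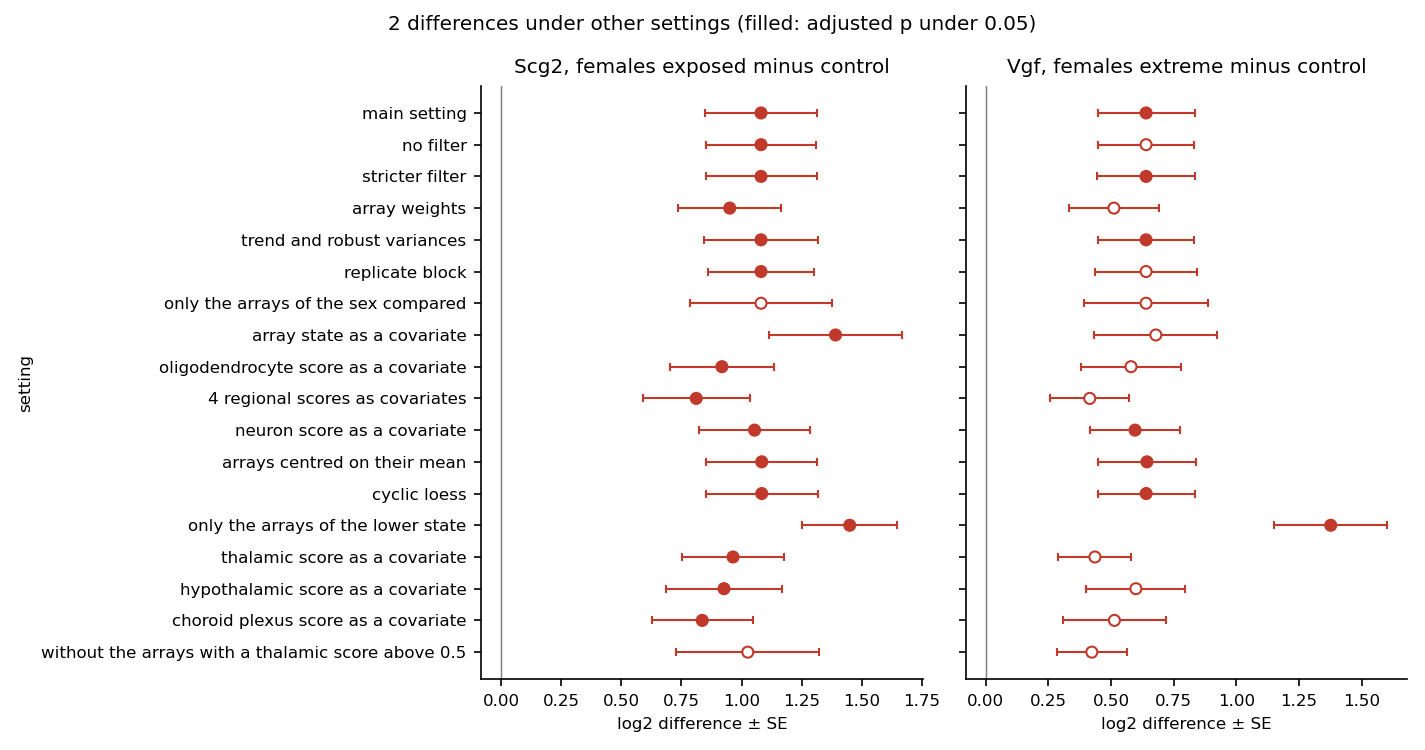
Log2 difference ± SE (horizontal axes) of Scg2 in exposed minus control females and of Vgf in extreme minus control females under each setting (vertical axis), with filled points for an adjusted p under 0.05. Scg2 lies between 0.81 and 1.45, while Vgf lies between 0.41 and 1.38, the highest from the lower-state arrays, which hold 1 extreme female, and passes in 5 other settings besides that one and the main one.

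Vgf was high in part of the extreme females. It read 7.77, 9.03, 8.90, 8.08 and 7.68 in extreme females, 7.96, 7.35, 7.29, 7.57 and 7.35 in minimal females and 7.56, 7.42, 7.39, 8.01 and 7.88 in female controls. Extreme arrays 2 and 3 stood well above all others, and the remaining extreme arrays lay within or close to the range of the controls. Extreme females exceeded controls by 0.64 ± 0.19, or 1.56-fold (limma adjusted p = 0.0438). Scg2 and Vgf were the 2 of 6 members that passed in extreme against control females, where 6.53% of probes passed.

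The Vgf call rests on few arrays. It ended without extreme array 2 (0.46, adjusted p = 0.142), without extreme array 3 (0.49, 0.159), without any 1 of control arrays 1, 2 and 3 (0.57 to 0.62, 0.0905 to 0.121), and without any 1 of 6 male arrays, where the difference stayed and the adjusted p was 0.0506 to 0.0515. It also ended with the replicate number as a block (0.0612), and the exact permutation test on Vgf alone gave p = 0.0714. Extreme arrays 2 and 3 had the highest thalamic scores of all 30 arrays, 2.01 and 1.62, and the lowest pallial excitatory neuron scores, -1.70 and -1.63. With the thalamic score as a covariate the difference was 0.44 (adjusted p = 0.0731), with 4 regional scores 0.41 (0.102), and without the 8 arrays of high thalamic score 0.42 (0.12).

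Against minimal females, extreme females had more Vgf on all 5 arrays than the minimal mean of 7.50, and 3 of 5 were above the highest minimal array. The difference of 0.79 ± 0.19 was the largest of Vgf in any comparison within a sex. It had an exact permutation p of 0.0318 but a limma adjusted p of 0.123. By limma 0 of 6 members passed between extreme and minimal females, where 17 probes or 0.128% passed. Unadjusted, 1 member, Vgf, had a limma p under 0.05, as had 9.476% of probes. Chga and Scg3 differed by -0.18 each, Scg5 by 0.17 and Chgb by 0.05, all with an adjusted p of 0.618 or above.

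**Figure D3:**
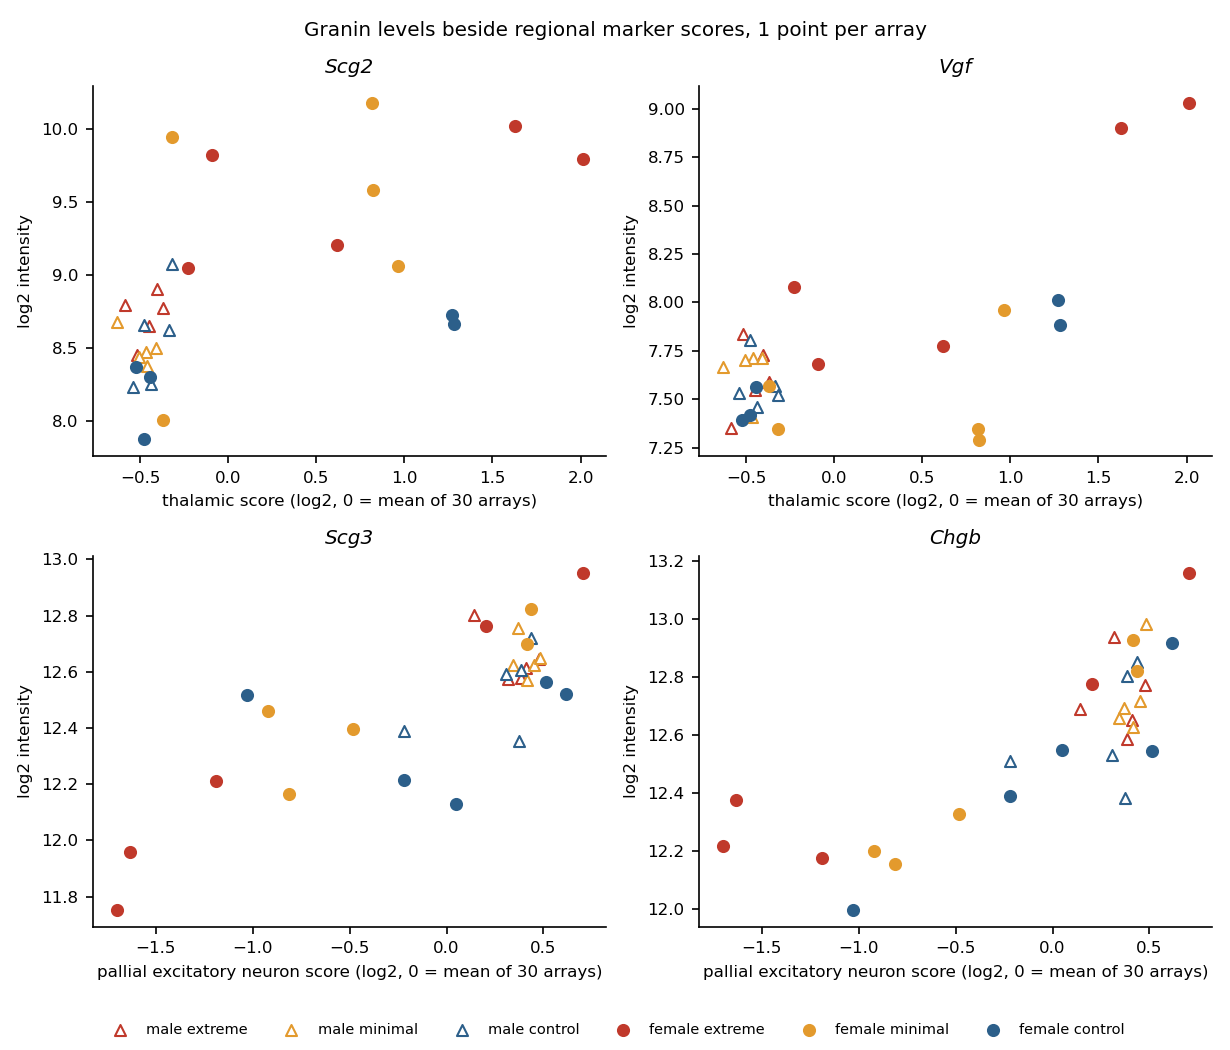
Log2 intensity (vertical axes) of Scg2 and Vgf against the thalamic marker score and of Scg3 and Chgb against the pallial excitatory neuron score (horizontal axes, log2), 1 point per array, males open and females filled. Male arrays lie together, with thalamic scores of -0.64 to -0.32, while female arrays spread from -0.52 to 2.01, and the 2 arrays with the highest Vgf have the highest thalamic scores.

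Scg5 was lowest in the minimal females. It read 11.12, 11.20, 11.10, 11.42 and 11.29 in extreme females, 10.91, 10.84, 11.21, 11.41 and 10.89 in minimal females and 11.62, 11.36, 11.20, 11.37 and 11.34 in female controls. Of the minimal arrays, 3 lay below every control and 2 within the range of the controls. Minimal females were lower than controls by a log2 of -0.33 ± 0.10 (adjusted p = 0.102), and the call was made only when minimal array 4 was left out (-0.42, 0.0265). In exposed females together, the exact permutation test on Scg5 alone gave p = 0.0386, which does not account for the number of genes.

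The chromogranins and Scg3 did not separate the female groups. Chgb averaged 12.54 ± 0.42 in extreme females, 12.49 ± 0.36 in minimal females and 12.48 ± 0.33 in control females (SD, n = 5 each). Scg3 averaged 12.33 ± 0.51 in extreme females, 12.51 ± 0.26 in minimal females and 12.39 ± 0.20 in control females. Chga averaged 8.14 ± 0.17 in extreme females, 8.33 ± 0.27 in minimal females and 8.13 ± 0.27 in control females. The ranges of all 3 groups overlapped for each of these genes. Chgb passed in extreme against control females in 1 setting, with 4 regional scores as covariates (0.34, adjusted p = 0.0359), where in the reported fit it differed by 0.06 ± 0.17.

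Chgb and Scg3 were then set beside the pallial excitatory neuron score. On the 5 female arrays with the lowest of these scores, extreme 1, 2 and 3, minimal 2 and control 3, Chgb read 12.18, 12.22, 12.38, 12.20 and 12.00, each below its group's mean. Scg3 read 12.21, 11.75, 11.96, 12.46 and 12.52 on the same arrays, where control 3 lay above the control mean. The lowest Scg3 values among controls, 12.22 and 12.13, were on control arrays 4 and 5, with scores of -0.22 and 0.05. On extreme array 5, which had the highest score of all arrays, 0.70, Chgb read 13.16 and Scg3 12.95, their highest values. Scg3 was at its lowest, 11.75 and 11.96, on extreme arrays 2 and 3, the arrays where Vgf was highest. The part of the neuron markers in these values was not tested.

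In males no granin passed in any comparison between conditions. Scg2 read 8.65, 8.91, 8.45, 8.78 and 8.79 in extreme males, 8.47, 8.38, 8.68, 8.50 and 8.44 in minimal males and 8.62, 8.26, 9.08, 8.23 and 8.66 in male controls. Both exposed groups lay within the range of the controls. Exposed males averaged 8.61 ± 0.18 (SD, n = 10) and male controls 8.57 ± 0.35 (SD, n = 5), a difference of 0.04 ± 0.23. Vgf in males stayed between 7.35 and 7.84 on all 15 arrays.

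All 6 exposed minus control differences in males were positive, at 0.04 to 0.16, and 10 of 10 exposed males were above the control mean of Scg3 and 9 of 10 above that of Chgb and of Scg5. Scg5 had the largest male difference, 0.16 ± 0.09 (adjusted p = 0.608). It read 11.47, 11.33, 11.42, 11.39 and 11.51 in extreme males, 11.51, 11.17, 11.40, 11.50 and 11.32 in minimal males and 11.48, 11.06, 11.09, 11.11 and 11.46 in male controls. The male controls fell into 3 low and 2 high arrays, and the exposed males overlapped with the high ones. Scg3 averaged 12.64 ± 0.09 in extreme males, 12.65 ± 0.07 in minimal males and 12.53 ± 0.16 in control males (SD, n = 5 each). Chgb averaged 12.73 ± 0.14 in extreme males, 12.73 ± 0.14 in minimal males and 12.62 ± 0.20 in control males. By limma 0 of 6 members passed, 0 had an unadjusted p under 0.05 and 0 an exact permutation p under 0.05, and 0% of probes passed. Extreme against control males likewise gave 0 members by limma, by the unadjusted p and by the permutation test, where 106 probes or 0.797% passed. Minimal against control males and extreme against minimal males also gave 0 members by each of these measures, and 0% and 0% of probes passed. The share of probes with an unadjusted limma p under 0.05 was 9.37% in exposed against control males. It was 13.85% in extreme against control, 5.155% in minimal against control and 9.994% in extreme against minimal males.

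**Figure D4:**
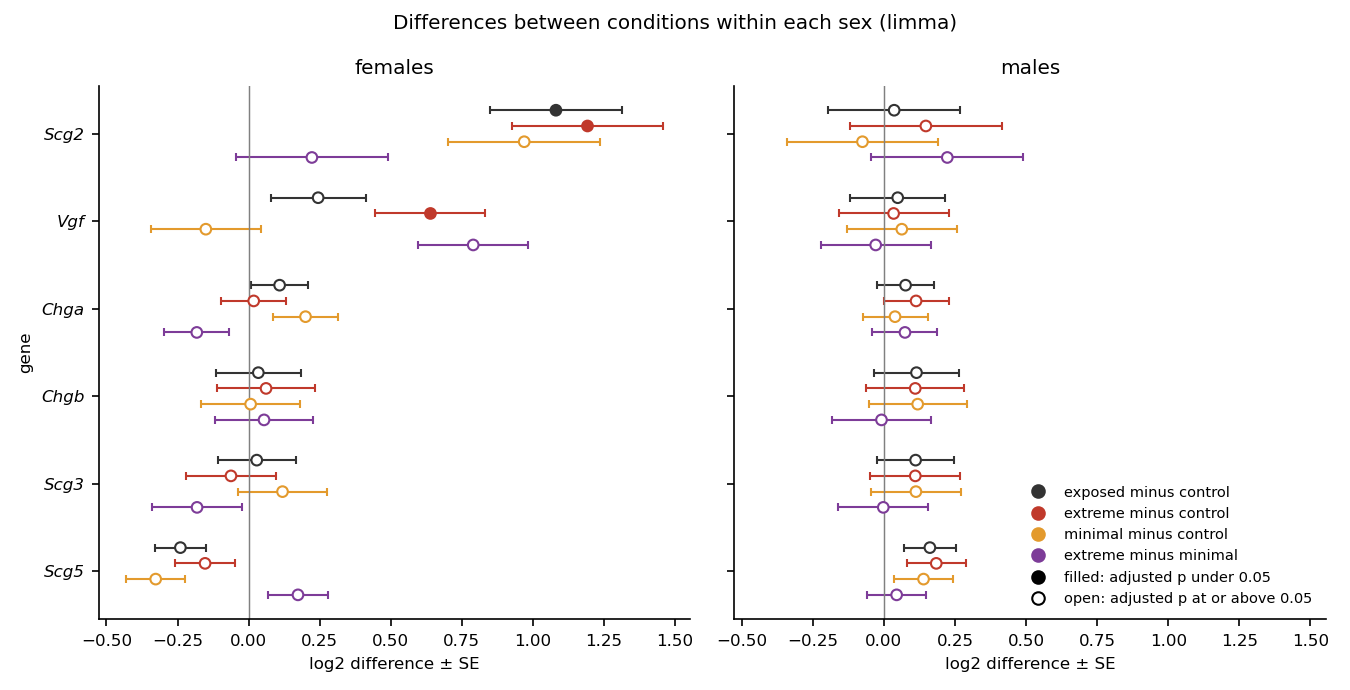
Log2 difference ± SE (horizontal axes) of each granin (vertical axis) between conditions in females and in males, from limma, with filled points for an adjusted p under 0.05. Scg2 in exposed and in extreme females and Vgf in extreme females are filled, at 1.08, 1.19 and 0.64, and every male point lies between -0.08 and 0.22.

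The sexes were then compared in how the granins differed with exposure. For Scg2 the exposed minus control difference was 1.08 in females and 0.04 in males, and the difference between them was 1.04 ± 0.33 (adjusted p = 0.0626). For Scg5 the values were -0.24 in females and 0.16 in males, a difference of -0.40 ± 0.13 (adjusted p = 0.0682). Neither passed, so a sex difference in the response of Scg2 or Scg5 was not established. Both passed with array weights, Scg2 also without extreme female 4 or minimal female 4, and Scg5 without any 1 of 4 arrays. By limma 0 of 6 members passed, where 4.49% of probes passed. Unadjusted, 2 members had a limma p under 0.05, as had 20.21% of probes. All 3 array state genes passed in the same comparison, with a median of 2.89, so state and exposure by sex are not separated here.

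For extreme minus minimal, Vgf differed by 0.79 in females and -0.03 in males, and the difference between these was 0.82 ± 0.27 (adjusted p = 0.22). By limma 0 members passed there, and 7 probes or 0.0526% passed. Unadjusted, 1 member had a limma p under 0.05, as had 11.84% of probes. For Scg2 the same value was 0.00 ± 0.38, since extreme exceeded minimal rats by 0.22 in each sex. Over both sexes together Scg2 was higher in exposed rats by 0.56 ± 0.16 (adjusted p = 0.123). By limma 0 of 6 members passed over both sexes, where 0.759% of probes passed. Unadjusted, 1 member had a limma p under 0.05, as had 11.33% of probes.

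Males had less Scg2 than females when the 3 conditions were weighed equally. The difference was -0.52 ± 0.15 (adjusted p = 0.0188), and it was 1 member lower and 0 higher of 6, where 2553 probes or 19.2% passed. Group by group, extreme males averaged 8.72 ± 0.17 and extreme females 9.58 ± 0.42, minimal males 8.49 ± 0.11 and minimal females 9.36 ± 0.86, and control males 8.57 ± 0.35 and control females 8.39 ± 0.34 (SD, n = 5 each). Among controls, then, the male mean was the higher one. The other members differed by -0.21 (Vgf) to 0.20 (Scg3) and did not pass.

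The regional scores move with sex. The thalamic score was -0.64 to -0.32 in males and -0.52 to 2.01 in females, 9 of 12 thalamic and 12 of 14 oligodendrocyte markers were lower in males by limma, and 4 of 8 pallial excitatory neuron markers were higher. Over all probes 19.2% passed in male minus female. With the thalamic score as a covariate the male minus female difference of Scg2 was -0.22 (adjusted p = 0.59), with the oligodendrocyte score -0.24 (0.621), and without the 8 arrays of high thalamic score -0.27 (0.472). For Scg3 the sign turned, to -0.12 with the thalamic score, against 0.20 in the reported fit.

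The granins also varied less among males. The SD within groups, pooled over the 3 conditions, was 0.23 in males and 0.59 in females for Scg2, 0.15 in males and 0.43 in females for Vgf, and 0.11 in males and 0.35 in females for Scg3. For Chga it was 0.10 in males and 0.24 in females, for Chgb 0.16 in males and 0.37 in females, and for Scg5 0.15 in males and 0.18 in females. These SDs were not compared by a test. The thalamic score also spread more widely among females, and the spread over all probes was not compared. A lower spread in males is therefore not shown to be particular to the granins. Limma's fit takes 1 spread for all groups, so it lies between those of the sexes. For comparisons among females it is below their own spread, so the limma SEs given there are smaller than that spread would give.

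Ordered by group mean, Scg2 ran from extreme females (9.58) and minimal females (9.36) through extreme males (8.72), control males (8.57) and minimal males (8.49) to control females (8.39). The largest step, 0.64 between minimal females and extreme males, was below the larger SD of that pair. For Vgf the step from extreme females (8.29) to the next group, control females (7.65), was 0.64 and just above the larger SD, 0.63. In the other 4 genes no pair of neighbouring groups was farther apart than the larger SD of the pair.

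Across arrays the 6 genes did not form 1 block. Deviations from the group means were correlated for the 15 pairs, with permutation tests within groups (100000 resamples, two-sided) adjusted over the 15 pairs. Chgb and Scg3 had Pearson's r = 0.68 (adjusted p = 0.0317) and Spearman's rho = 0.70 (adjusted p = 0.0204), and r was 0.70 without the 2 arrays farthest from the median. Chgb and Scg5 had r = 0.58 (adjusted permutation p = 0.0317) and rho = 0.53 (adjusted permutation p = 0.0711), with r = 0.58 without those 2 arrays. The other 13 pairs did not pass.

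Within array states and sexes these relations were of the same sign. Chgb and Scg3 had r = 0.37 in the lower-state and 0.84 in the higher-state arrays, and 0.49 among males and 0.71 among females. Chgb and Scg5 had r = 0.53 in the lower-state and 0.66 in the higher-state arrays, and 0.67 among males and 0.58 among females. Within a single sex no pair passed, with adjusted permutation p = 0.343 in males and 0.148 in females for Chgb and Scg3. Scg2 followed none of the others, with r between -0.40 (Scg5) and 0.12 (Vgf). Vgf and Scg3 had r = -0.58 (adjusted permutation p = 0.371), or -0.37 without extreme female arrays 2 and 3, so that relation rests in part on those arrays. Its sign differed between the sexes, with r = 0.46 among males and -0.70 among females.

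**Figure D5:**
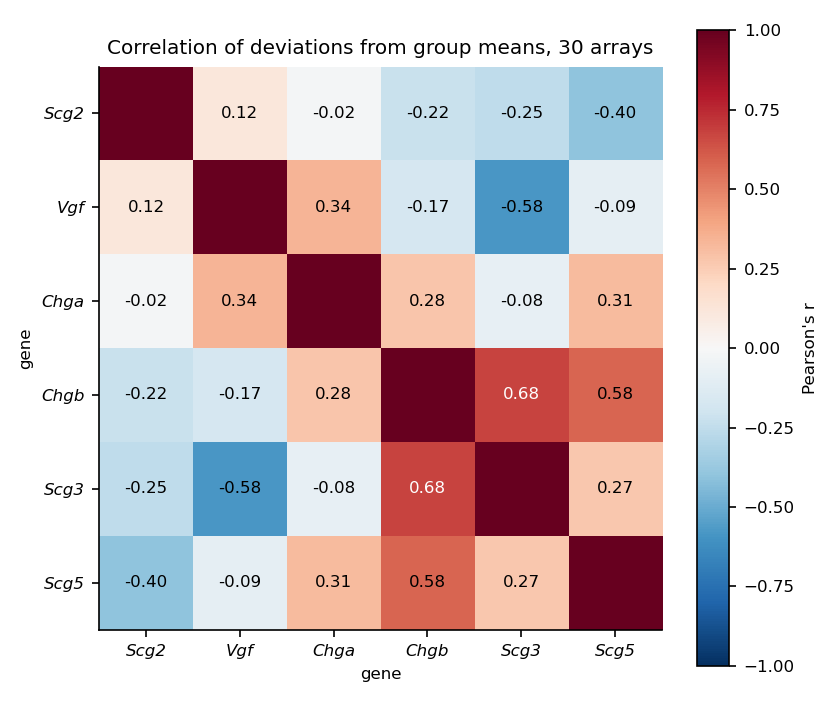
Pearson's r between the 6 granins (both axes) over 30 arrays after subtraction of group means, with colour from -1 to 1. Chgb with Scg3 (0.68) and Chgb with Scg5 (0.58) are the pairs that passed, and Scg2 is near 0 or negative with all but Vgf (0.12).

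Genes with the most similar pattern were ranked by Pearson's r over the 30 arrays among 9164 other named genes, as a description. All arrays share the group differences and the regional differences given above. For Scg2 these were Resp18 (0.83), A2m (0.82), Tanc1 (0.81), Lrrn1 (0.81) and Fzd1 (0.79). For Vgf they were Vash2 (0.86), Cmas, Mb21d2, Klhl22 and Dbndd1, and rho for Vash2 was 0.42. Chgb was most like Smc1a (0.87), Gpr22, Atp6v1d, Ppfia2 and the pallial marker Neurod6 (0.83), and Scg3 like Slitrk5 (0.90), Gria2, Gpr85, Asphd2 and Zdhhc23. Chga was most like Dscam (0.78), Cntnap4, Vps11, Tnpo3 and Chp1, and Scg5 like Fbxo34 (0.81), Lancl1, Ing2, Hmmr and Pfkp. Scg3 ranked 123 among the genes like Chgb, while Vgf ranked 1393 among those like Scg2.

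The rest of the granule pathway was read from lists chosen by role. Of 8 genes of the wider granin family, which adds Pcsk1n and Gnas, Scg2 alone passed in exposed against control females, where 6.87% of probes passed. Of 10 measured genes of prohormone processing, the steps that cut and amidate peptide precursors, 0 passed by limma in that comparison. Pcsk2, the convertase whose chaperone is Scg5, was lower in exposed than in control females by -0.47 ± 0.15 and just missed (adjusted p = 0.0533). In males Pcsk2 was higher in exposed than in control rats by 0.24 ± 0.15. The female minus male difference, -0.71 ± 0.21, passed (adjusted p = 0.0489), where 4.49% of probes passed and the array state also differed.

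Of 29 measured genes of granule biogenesis and exocytosis, 2 were higher and 2 lower in exposed than in control females, where 6.87% of probes passed. Atp6ap1, an accessory subunit of the vacuolar proton pump that acidifies granules, rose by 0.38 ± 0.09 (adjusted p = 0.0077), and the synaptotagmin Syt11 rose by 0.23 ± 0.07 (0.0421). The SNARE gene Vti1a fell by 0.29 ± 0.08 (0.0325) and the vesicle GTPase gene Rab3a by 0.47 ± 0.14 (0.0374). Resp18, a protein of the granule lumen, averaged 11.94 ± 0.18 in extreme females, 12.01 ± 0.64 in minimal females and 11.33 ± 0.31 in control females (SD, n = 5 each). Its exposed minus control difference of 0.64 ± 0.21 did not pass (adjusted p = 0.0674). In extreme against control females, where 6.53% of probes passed, Atp6ap1 (0.45) and Syt11 (0.36) rose again and Ptprn, a granule membrane protein, fell by 0.54. The list's median in exposed against control females was -0.01, against 0.00 over all probes, and in extreme against control females it was -0.03.

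Of 23 measured neuropeptide precursors 0 passed in exposed against control females by limma, where 6.87% of probes passed. The largest was the melanin-concentrating hormone precursor Pmch, a hypothalamic marker, at 2.43 ± 0.79 (adjusted p = 0.0626). Of 20 activity-regulated genes Sik1, a kinase gene with a response to cAMP, rose by 0.51 ± 0.14 (0.0219) in exposed females. In extreme against control females, where 6.53% of probes passed, 3 rose and 0 fell: Sik1 by 0.76 ± 0.16 (0.0041), Ier2 by 0.47 ± 0.14 (0.0361) and Dusp1 by 1.12 ± 0.33 (0.0365). The median over these 20 genes was 0.22 in extreme, -0.11 in minimal and 0.08 in exposed females together, with 16, 7 and 15 of 20 positive. In exposed against control males 0 genes of these 4 lists passed by limma, where 0% of probes passed.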

How the data were processed

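Amygdala RNA from 30 rats was measured on Illumina BeadChips. The sample labels gave each array's group, sex and replicate number, and name a separate rat for each. The values are log2 intensities of 22523 probes as deposited by the authors. They run from 6.38 to 15.06, which fits a log2 scale, and the array medians are the same. How background was removed and arrays were normalized is not given in the sources used here. A second deposited table was left aside, because its 60 columns match no sample label, so the test meant for scanner values was run on the authors' log2 values.

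Of the probes 13793 carried 1 gene symbol and 8730 none. A probe entered the test when at least 5 arrays showed it above their median, which left 13308 probes for 9165 named genes, all 6 members included. The means of the 6 groups were fitted with limma 3.58.1 in R 4.3.3 (24 residual degrees of freedom), with Benjamini-Hochberg adjustment over all probes of each of 12 comparisons. The fit was tried on data simulated with the same spread in every group. That trial cannot show what the unequal spread of the sexes does to the calls. For single genes an exact permutation test over arrays was added in 48 cases, without adjustment. Sequences and positions are RefSeq's for GRCr8, matched by symbol, and 5 of 6 members, all but Chga, had a promoter entry.

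Named genes are the 6 members, up to 4 genes of each list past the threshold, and for each member the 5 genes with the highest r. Pmch, and Pcsk2 in exposed against control females, were named after their values were seen. The members, lists and tests were chosen with earlier results of these data known. Other settings covered the filter, array weights, variance model, replicate block, scaling, arrays in the fit, array state and marker scores as covariates, and each array left out. The settings with only 1 array state, with a single regional score other than the oligodendrocyte and neuron scores, and without high thalamic scores were added after seeing the data. Extreme and minimal female arrays of one number deviated together from their group means, with correlations of 0.146 to 0.687 (mean 0.421, against -0.104 for other numbers). A pairing of these arrays by number was read from the data, is not stated in the labels and is not used in the reported fit. The replicate block setting blocked by number over all 30 arrays. Yet same-numbered extreme and control females had a mean correlation of -0.322, and minimal and control females of -0.172. Arrays 1, 2 and 3 of both exposed female groups also had high thalamic scores, so number and score cannot be told apart there.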

Additional observations from a re-analysis of the deposited data

Results flagged for a closer look

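Chance alone marks about 1 in 20 groups of this size, and 36 groups (6 genes in 6 groups) were looked at for an array far from the rest. Vgf on minimal male array 1 read 7.409, below the other 4 minimal males, which lay close together. Chgb on minimal male array 4 read 12.98, above the other 4.

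Among the pathway lists, Atp6ap1 and Pcsk2 differed between the sexes in how they moved with exposure. The array state runs along this comparison too, as given above. For Atp6ap1 the exposed minus control difference in females minus that in males was 0.5283 ± 0.12 (limma adjusted p = 0.0138). For Pcsk2 it was -0.7104 ± 0.21 (limma adjusted p = 0.0489). Pcsk2 averaged 9.02 ± 0.26 in extreme females, 8.95 ± 0.31 in minimal females and 9.46 ± 0.38 in control females. In males Pcsk2 averaged 9.72 ± 0.20 in the extreme, 9.61 ± 0.16 in the minimal and 9.43 ± 0.34 in the control group (SD, n = 5 each).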

How the results depend on the processing

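The count of members past the threshold was recomputed under each setting. In exposed minus control females it was 1 (Scg2) and became 0 with only the female arrays and 0 without the 8 arrays of high thalamic score. In extreme minus control females it was 2 (Scg2 and Vgf). It became 1 with no filter, array weights, the replicate block, the array state, or the oligodendrocyte, thalamic or hypothalamic score as a covariate, with Scg2 still passing in each; it stayed 2 with 4 regional scores, but as Scg2 and Chgb, with Vgf lost; and it became 0 with only the female arrays, the choroid plexus score, or without the 8 arrays. In minimal minus control females it was 0 and became 1, Scg2, with the replicate block, the array state, the neuron score, the thalamic score, or only the lower-state arrays. In extreme minus minimal females it was 0 and became 1, Vgf, with only the lower-state arrays, where 1 extreme array is assumed to vary like the other groups. Array weights gave 1 member (Scg2) over both sexes and 2 (Scg2 and Scg5) for exposure by sex, where the reported count is 0. In male minus female it was 1 and became 0 with the oligodendrocyte, thalamic, hypothalamic or choroid plexus score, with 4 regional scores, or without the 8 arrays. Of the pair correlations 2 passed, and 1 passed with Spearman's rho, 0 with only the female arrays and 0 with only the male arrays. The cause of these changes was not tested, and some of these fits held fewer arrays.

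Leaving out 1 array in turn gave counts of 1 to 2 in exposed and in extreme minus control females and in male minus female, 0 to 2 in minimal minus control females and in exposure by sex, 0 to 1 in extreme minus minimal females and over both sexes, and 0 to 0 elsewhere. The male minus female difference turned its sign for Vgf with the thalamic score (0.1263), for Chgb with 4 regional scores (-0.09148), and for Scg3 with 4 regional scores (-0.1233), with the thalamic score (-0.1234) and without the 8 arrays (-0.1107). None of these 5 passed. Over all probes, the count past the threshold ranged over the settings from 328 to 1278 in exposed minus control females (914 reported), from 134 to 1042 in extreme minus control females (869), from 39 to 427 in minimal minus control females (263), from 0 to 40 in extreme minus minimal females (17), from 14 to 1403 for exposure by sex (597), from 0 to 40 for response class by sex (7), from 6 to 310 over both sexes (101), and from 0 to 2786 in male minus female (2553). In males it ranged from 0 to 194 for exposed (0), 0 to 362 for extreme (106) and 0 to 2 for minimal minus control (0), and from 0 to 201 for extreme minus minimal (0). The replicate block gave 863 calls in exposed minus control females, and apart from Scg2 and Vgf as given above it changed no call of a member. Probes near the array median may carry little signal over background, which was not measured here. Vgf, with a mean of 7.71 against an array median of 7.02, may be among them.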
